A study of Mus musculus with 24 samples.

Results

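The comparison set the cortex of R6/2 mice against the cortex of wild-type mice at 8 weeks of age, with 3 libraries in each group. It was made up of every gene with a mean of at least 0.5 RPKM (a read density that corrects counts for gene length and sequencing depth) over these 6 libraries. That rule kept 11663 of the 18669 genes in the deposited files. The last gene kept had a mean of 0.5001 RPKM and the first gene left out a mean of 0.4998 RPKM. The whole series held 24 libraries of polyadenylated RNA from cortex and striatum, taken from R6/2 and wild-type mice at 8 and 12 weeks, with 3 libraries in each of its 8 groups. The strain background of both groups was C57Bl/6 / CBA, and by the labels the groups differed in the R6/2 transgene alone. R6/2 mice carry a transgene for the first exon of human huntingtin, with an expanded run of CAG and under its human promoter, and they keep both copies of their own Htt gene. The line is a model of Huntington's disease that shows early and fast decline. No label gives sex or pooling, or says that replicates came from separate animals, so a p-value here measures only how far these samples spread, for technical or other reasons.

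The cortex is built mainly of glutamatergic projection neurons, which send axons to the striatum and to other regions, and of GABAergic interneurons that act within it. In Huntington's disease mutant huntingtin enters the nucleus of neurons and disturbs transcription, and transcripts of neurotransmitter receptors, neuropeptides and activity-induced genes are known to be among the most affected. The title of the series names methylation of histone H3 at lysine 4, a mark found at the starts of active genes, so enzymes that write and remove it are described below as well.

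The libraries held 11612687 to 44625494 counts in genes. The wild-type libraries had 13690172, 11612687 and 29250440 counts, and the R6/2 libraries 23292568, 18312105 and 44625494. The libraries stood apart by base composition. In wild-type replicates 1 and 2, log2 RPKM fell with the GC content of the transcript, with slopes of -0.56 and -0.55 per 10 GC percentage points around the mean of the 6 libraries. Wild-type replicate 3 had a slope of 0.15, and the R6/2 libraries had slopes of 0.23, 0.46 and 0.28. The 2 groups did not overlap in this slope, and the exact two-sided permutation p was 0.1, which is the smallest that 3 against 3 libraries allow. GC content and genotype were thus partly confounded, and values are given as counted and, where stated, also after removal of the dependence on GC content and gene length seen in each library (called GC-corrected) or against wild-type replicate 3 alone. A value with no reading named is as counted. R6/2 replicate 3 also carried gene lengths that were 4 to 760 bases shorter than in the other libraries, which enters its RPKM and not its counts. Markers of cortical projection neurons were present in every library, at 1386 to 2301 RPKM summed over 20 genes. No striatal library was set beside these sums, so they do not test the tissue label.

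**Figure D1:**
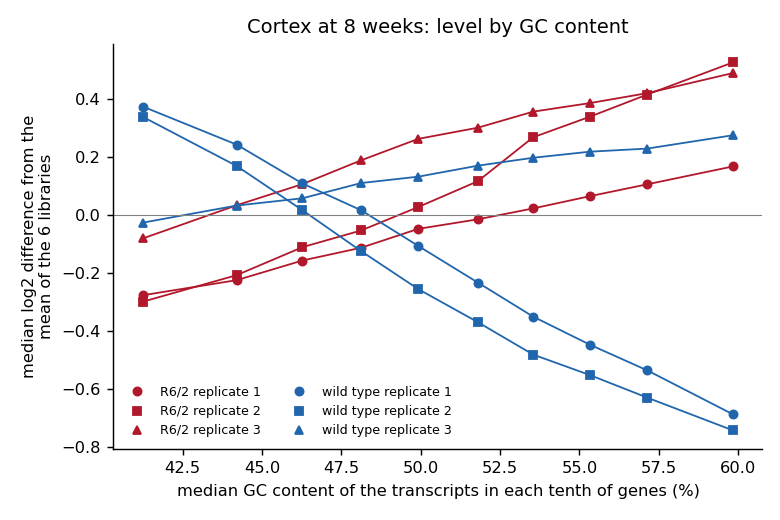
Median log2 difference of each library from the mean of the 6 libraries (y axis), for 10 bins of the tested genes, of equal size, ordered by the GC content of their transcripts (x axis, percent). Red symbols are the 3 R6/2 libraries and blue symbols the 3 wild-type libraries. In the most GC-rich bin the medians of wild-type replicates 1 and 2 lay at -0.69 and -0.74, and those of the other 4 libraries between 0.17 and 0.53.

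No gene passed an adjusted p of 0.05 in the edgeR quasi-likelihood test at 8 weeks, either lower (0%) or higher (0%). The smallest adjusted p was 0.126. At an unadjusted p under 0.05, 1500 genes were lower in R6/2 (12.9% of those tested) and 1453 higher (12.5%). limma on log2 RPKM also called none, and DESeq2 called 1039 (8.91%), of which 688 were lower (5.9%) and 351 higher (3.01%). The edgeR count depended on wild-type replicate 3: without it, edgeR called 3102 genes against the 2 libraries that were low in GC-rich genes. With the GC correction none was called (0% in either direction), the smallest adjusted p was 0.0657, and 802 genes were lower (6.88%) and 922 higher (7.91%) at an unadjusted p under 0.05. All differences at 8 weeks are therefore described below by their values, and the words lower and higher give only the direction of the measured mean.

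The confounding with base composition was large for single genes. Log2 fold changes, R6/2 over wild type, had a median of -0.47 in the 3877 genes with the lowest GC content, 0.07 in the 3877 in the middle and 0.51 in the 3877 with the highest. After GC correction these medians were 0.03, 0.07 and 0.06. Against wild-type replicate 3 alone they were -0.11, 0.02 and 0.16. Of the 688 genes that DESeq2 placed lower, 525 were among those with the lowest GC content and 27 among those with the highest, and of its 351 higher genes 8 and 303. The correlation across 11631 genes of GC content with the log2 fold change was 0.60 as counted and -0.01 after GC correction, and at 12 weeks, in other libraries, it was -0.12.

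Gene by gene, the 3 R6/2 libraries all lay below the 3 wild-type libraries for 1098 genes (9.41% of those tested) and above them for 1593 genes (13.7%). All 3 R6/2 libraries lay below wild-type replicate 3 for 24.4% of genes and above it for 19% of genes. Scaling moved the median log2 fold change of all genes, from 0.04 with the TMM factors used here to 0.18 with library totals and 0.17 with limma on RPKM, and changes are read relative to it. The shares without overlap are the background for the counts in gene groups that follow.

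A check on the labels came first. Gm12695, a gene of little known function, is the place where the transgene of this line is known to sit. Gm12695 read 0.912, 0.835 and 2.12 RPKM in the R6/2 libraries and 0, 0.0345 and 0 RPKM in the wild-type libraries. The R6/2 libraries together held 283 of its counts, 35 to 193 each, and the wild-type libraries held 1 count. With a wild-type mean of 0.0115 RPKM it reached the minimum level only through the R6/2 libraries, which favoured the direction found. Relative to all counts in genes the ratio was 179, with a 95% interval of 31.9 to 7096 that covers counting error only, and the edgeR adjusted p was 0.126. All 6 libraries thus matched their genotype label at this locus. Mouse Htt, the normal counterpart of the transgene, read 7.38, 3.73 and 10.6 RPKM in R6/2 and 6.19, 4.42 and 10.2 RPKM in wild type, and the ranges overlapped. Its log2 fold change was -0.08 (SE 0.36, n = 3 and 3, edgeR adjusted p = 0.896).

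The 10 genes with the smallest p among those lower in R6/2 were Ddit4l, Fut9, Hapln1, B3galt2, Ptgs2, Pdp1, Htr1a, Abi3bp, Scube1 and Myh7, all with an edgeR adjusted p of 0.126. Ddit4l encodes an inhibitor of the growth-controlling kinase complex mTORC1. It read 2.09, 2.02 and 2.46 RPKM in the R6/2 libraries and 5.47, 6.13 and 10.1 RPKM in the wild-type libraries. Every R6/2 library was below every wild-type library, and the log2 fold change of -1.85 (SE 0.28, n = 3 and 3) was -1.94 after GC correction, where Ddit4l had the smallest adjusted p of all genes (0.0657). Ptgs2, the inducible cyclooxygenase that makes prostaglandins and responds to synaptic activity, read 0.746, 0.908 and 1.05 RPKM in R6/2 and 2.43, 3.35 and 2.71 RPKM in wild type. Its log2 fold change was -1.84 (SE 0.32), -1.12 after GC correction and -1.56 against wild-type replicate 3 alone. Pdp1, a phosphatase that switches on pyruvate dehydrogenase in mitochondria, read 16.5, 17.8 and 21.6 RPKM against 39.9, 44.2 and 40.7 RPKM. The spread within each of these groups was small next to the gap, at 18.6 ± 2.66 RPKM (SD, n = 3) in R6/2 and 41.6 ± 2.32 RPKM (SD, n = 3) in wild type. The log2 fold change of Pdp1 was -1.34 as counted, -0.67 after GC correction and -1.09 against wild-type replicate 3 alone.

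Other genes at the top of the lower side included some for the surface and matrix of cells, and sugar transferases. Hapln1, a link protein that holds hyaluronan and proteoglycans together in the nets around neurons, read 2.76, 2.97 and 4.33 RPKM in R6/2 and 7.82, 10.0 and 9.05 RPKM in wild type, and its log2 fold change of -1.60 was -0.85 after GC correction. The sugar transferases Fut9 and B3galt2 also separated, and their transcripts are poor in GC. Fut9, which adds fucose to make the Lewis X epitope, read 11.6, 8.72 and 10.7 RPKM against 23.7, 23.4 and 29.0 RPKM, and its log2 fold change of -1.44 was -0.68 after GC correction. B3galt2 read 6.47, 8.22 and 7.68 RPKM against 17.7, 13.7 and 19.5 RPKM, and its log2 fold change of -1.34 shrank to -0.26 (SE 0.34) after GC correction. Scube1, a secreted protein of the cell surface, read 2.62, 2.25 and 3.12 RPKM against 6.08, 5.63 and 5.93 RPKM, and its log2 fold change was -1.32 as counted and -1.51 after GC correction. Abi3bp, a protein of the extracellular matrix, read 0.287, 0.324 and 0.360 RPKM in R6/2 and 28.9, 3.52 and 1.70 RPKM in wild type. The 3 wild-type libraries differed widely in Abi3bp, so that the log2 fold change of -5.36 became -2.38 against wild-type replicate 3 alone. Myh7, a myosin heavy chain best known from heart and slow muscle, read 0.328, 0.226 and 0.280 RPKM against 0.845, 0.945 and 1.61 RPKM, which is a low level in all 6 libraries. Abi3bp and Myh7 reached the minimum level only through the wild-type libraries, with R6/2 means of 0.324 and 0.278 RPKM. For them the minimum level itself favoured the direction found.

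On the higher side the 10 genes with the smallest p were Gm12695, Pabpn1, Snrnp70, Fam193b, Irf7, Antkmt, Acin1, Hook2, Ubxn11 and Lime1, again with an edgeR adjusted p of 0.126. Pabpn1, Snrnp70 and Acin1 act on RNA in the nucleus. Pabpn1, which binds poly(A) tails, read 120, 161 and 128 RPKM in R6/2 and 44.8, 35.8 and 53 RPKM in wild type. Snrnp70, a protein of the U1 splicing particle, read 195, 130 and 102 RPKM against 39.2, 25.7 and 47.2 RPKM. Acin1, a protein of the splicing-dependent exon junction machinery, read 68.5, 86.0 and 64.4 RPKM against 27.3, 23 and 36.4 RPKM. The groups did not overlap for any of the 3, and their log2 fold changes of 1.45, 1.82 and 1.19 were 0.87, 1.5 and 0.86 after GC correction. At 12 weeks, in other libraries, Pabpn1 read 91.1, 149 and 122 RPKM in R6/2 and 78.6, 101 and 126 RPKM in wild type, and the log2 fold change was 0.08. Snrnp70 at that age read 103, 154 and 212 RPKM against 113, 155 and 125 RPKM, so the ranges overlapped for both genes.

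Fam193b, Hook2, Lime1, Ubxn11 and Antkmt made up the rest of the higher side. Fam193b read 14.6, 13.3 and 14.5 RPKM in R6/2 and 4.87, 4.78 and 6.77 RPKM in wild type. Hook2, an adaptor that links cargo to the motor dynein, read 7.37, 7.97 and 6.21 RPKM against 2.35, 1.92 and 2.80 RPKM. Lime1, a transmembrane adaptor studied in lymphocytes, read 13.6, 12.4 and 9.74 RPKM against 4.19, 4.10 and 4.09 RPKM. Their transcripts were GC-rich, at 56.9, 54.8 and 56.2%, against a median of 50.9% over the tested genes. Ubxn11 read 5.68, 8.23 and 10.7 RPKM against 1.74, 2.05 and 2.98 RPKM, and Antkmt, a mitochondrial lysine methyltransferase, read 29.3, 63.5 and 42.9 RPKM against 9.04, 10.7 and 18.5 RPKM. GC correction brought the log2 fold change of Antkmt from 1.67 to 0.84, of Fam193b from 1.22 to 0.82, of Hook2 from 1.45 to 1.07 and of Lime1 from 1.37 to 0.89. For Fam193b, Lime1 and Ubxn11 the 12-week log2 fold changes were -0.18, -0.15 and 0.02, and the unadjusted p of the difference between ages was 0.000156, 0.000156 and 0.000594. None of these differences passed adjustment in the edgeR interaction test, where the smallest adjusted p was 0.176.

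**Figure D2:**
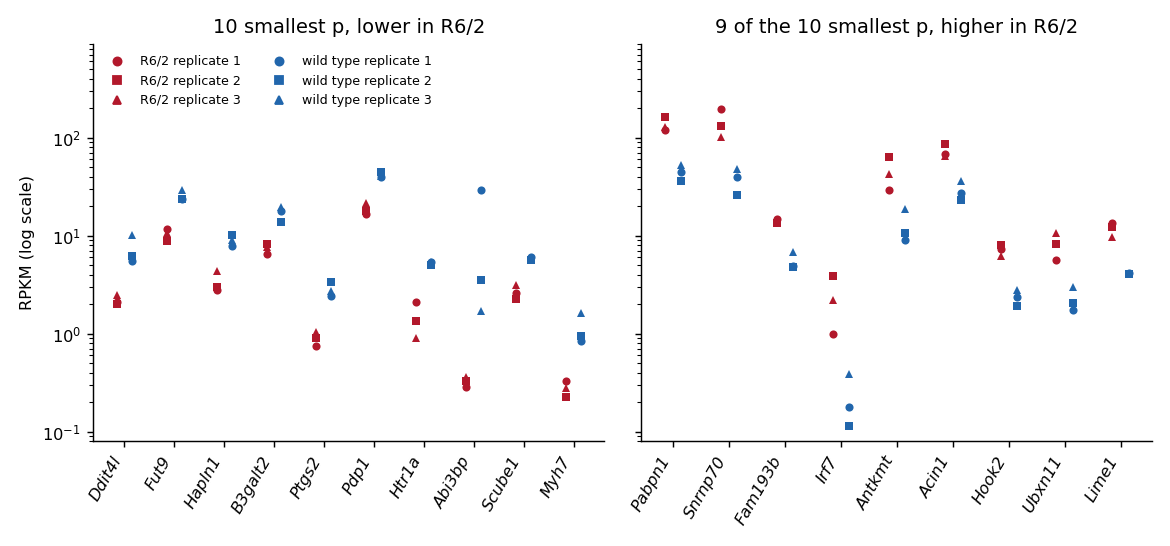
RPKM on a log axis (y) in each library for the 10 genes with the smallest p among those lower in R6/2 (left) and for 9 of the 10 among those higher (right, without Gm12695, which is at 0 in 2 wild-type libraries). Red symbols are R6/2 and blue symbols wild type, with 1 symbol shape per replicate. For every gene shown the red and blue symbols occupy separate ranges.

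The genes with the smallest p after GC correction overlapped only in part with those above. They were Ddit4l, Scube1, Myh7 and Gm12695 together with Gpr153, Stard8, Rbm28, Bok, Nbl1 and Itpka, a choice made after the values were seen. Itpka, a neuronal kinase of inositol trisphosphate that sits in dendritic spines, read 27.5, 31.4 and 35.5 RPKM in R6/2 and 26.0, 29.1 and 70.9 RPKM in wild type. As counted the groups overlapped and the log2 fold change was -0.53, and after GC correction it was -1.28 (SE 0.17, edgeR adjusted p = 0.133). Bok, a relative of the cell death protein BAX, went from -0.79 to -1.64, and Nbl1, an inhibitor of BMP signals, from -0.66 to -1.59. Gpr153, an orphan receptor, read 1.63, 1.62 and 1.78 RPKM against 4.38, 2.79 and 4.26 RPKM and separated either way, with log2 fold changes of -1.33 and -1.90. Stard8, a GTPase-activating protein, read 2.43, 1.98 and 3.05 RPKM against 5.10, 4.18 and 6.53 RPKM. Rbm28, a nucleolar RNA-binding protein, was on the higher side with 23, 14.9 and 20.8 RPKM against 8.65, 9.44 and 8.32 RPKM.

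Among the gene lists with at least 5 tested genes, interferon-response genes had the highest median. Interferons signal through a transcription factor complex that includes STAT2 and IRF9 and binds a short element in the promoters of target genes. Of the 13 genes listed, 11 were tested, and the 3 R6/2 libraries all lay above the 3 wild-type libraries for 9 of them, where 13.7% of all tested genes did. Of these 9, Irf7 and Usp18 reached the minimum level only through the R6/2 libraries, with wild-type means of 0.225 and 0.454 RPKM. For them the minimum level itself favoured the direction found. The list median was 1.15 on the log2 scale, 1.31 after GC correction and 0.96 against wild-type replicate 3 alone, beside 0.04, 0.05 and 0.02 over all tested genes. No member passed edgeR's adjusted test. On the higher side 7 had an unadjusted p under 0.05 in edgeR, where 12.5% of all tested genes did. DESeq2 placed 5 higher, where it placed 3.01% of all tested genes higher.

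Irf7, a transcription factor that amplifies interferon production, had the largest difference of the list. It read 0.993, 3.83 and 2.22 RPKM in the R6/2 libraries and 0.178, 0.115 and 0.382 RPKM in the wild-type libraries, a log2 fold change of 3.17 (SE 0.63, edgeR adjusted p = 0.126). Bst2, also called tetherin, which holds budding virus on the cell surface, read 4.36, 9.76 and 2.77 RPKM against 0.454, 0.512 and 2.26 RPKM, and wild-type replicate 3 came close to the lowest R6/2 library. The ubiquitin-like protease Usp18, which dampens interferon signals, read 1.29, 1.98 and 0.872 RPKM against 0.276, 0.374 and 0.712 RPKM. Oasl2, of the family of oligoadenylate synthetases, read 1.69, 1.65 and 1.24 RPKM against 0.416, 0.455 and 0.859 RPKM. Ifit1 and Ifit3 block the translation of foreign RNA. Ifit1 read 3.52, 2.48 and 2.28 RPKM against 1.29, 0.735 and 1.28 RPKM, and Ifit3 read 4.08, 6.89 and 4.70 RPKM against 2.03, 1.56 and 2.81 RPKM. The groups did not overlap for any of these genes, and the log2 fold changes of Usp18, Oasl2, Ifit1 and Ifit3 were 1.45, 1.28, 1.20 and 1.15.

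Other members of the list, among them the signalling proteins Irf9 and Stat2, differed less. Irf9 read 4.03, 4.2 and 3.26 RPKM in R6/2 and 2.50, 2.54 and 2.03 RPKM in wild type, a log2 fold change of 0.53 (SE 0.33). Ifi27 read 15.2, 30.0 and 18.5 RPKM against 12.5, 6.84 and 10.6 RPKM without overlap, a log2 fold change of 0.92 that was 0.36 after GC correction. Ddx58, the RNA sensor RIG-I, was barely apart, with 1.12, 1.15 and 1.41 RPKM against 0.938, 0.969 and 1.12 RPKM. Stat2 overlapped between the groups, with a log2 fold change of -0.06 (SE 0.27). Its sign turned with the scaling, as it was 0.08 with library totals and 0.01 with upper-quartile scaling. At 12 weeks 8 of the 11 members rose in edgeR's test, where 0.671% of all genes did, among them Usp18 with a log2 fold change of 3.24 (adjusted p = 0.00405) and Irf7 with 2.57 (0.00588). The microglia list, which marks the resident immune cells of the brain, had a median of 0.32 as counted and -0.11 after GC correction, and its summed level was 176 to 285 RPKM in R6/2 and 209 to 222 RPKM in wild type. Its part in the interferon result was not tested. In tissue RNA a change in the number of cells of a type and a change in RNA per cell cannot be told apart.

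The promoters of 3 interferon-response genes that separated between the groups are shown for the short promoter element mentioned above, and they were chosen because they hold it. Each is the stretch of 250 bases before the gene's start in RefSeq, build GRCm38.p6, read 5′ to 3′ on the strand of the gene. Capitals mark matches, on either strand, to GAAA, then any 2 bases, then GAAA, the core letters of the interferon-stimulated response element, and overlapping matches run together.
Ifit1, chr19:34640639-34640888, plus strand: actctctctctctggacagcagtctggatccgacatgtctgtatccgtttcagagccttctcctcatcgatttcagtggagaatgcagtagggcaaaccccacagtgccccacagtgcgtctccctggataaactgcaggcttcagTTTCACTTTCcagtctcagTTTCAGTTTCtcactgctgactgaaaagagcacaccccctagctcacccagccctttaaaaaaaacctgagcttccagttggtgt
Ifit3, chr19:34583279-34583528, plus strand: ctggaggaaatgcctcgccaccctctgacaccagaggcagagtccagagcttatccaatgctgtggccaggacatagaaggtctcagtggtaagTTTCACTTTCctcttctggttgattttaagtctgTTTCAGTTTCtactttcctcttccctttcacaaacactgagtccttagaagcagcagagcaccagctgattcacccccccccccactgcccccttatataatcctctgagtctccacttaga
Bst2, chr8:71537473-71537722, minus strand: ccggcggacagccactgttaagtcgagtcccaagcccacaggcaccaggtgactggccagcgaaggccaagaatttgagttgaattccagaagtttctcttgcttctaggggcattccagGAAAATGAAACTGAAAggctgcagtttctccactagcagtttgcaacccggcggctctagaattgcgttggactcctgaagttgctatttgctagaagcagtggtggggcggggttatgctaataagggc
Each of the 3 windows held 2 matches. Of the 13 listed genes 10 were in the promoter table, and 6 of these 10 held the letters, namely Ifit1, Ifit3, Isg15, Stat2, Rsad2 and Bst2. The letters were in 2.98% of all 32851 promoters of that table. Stat2 holds a match and its level did not separate between the groups. Irf7, Oasl2, Irf9 and Ddx58 separated and hold none in this window.

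**Figure D3:**
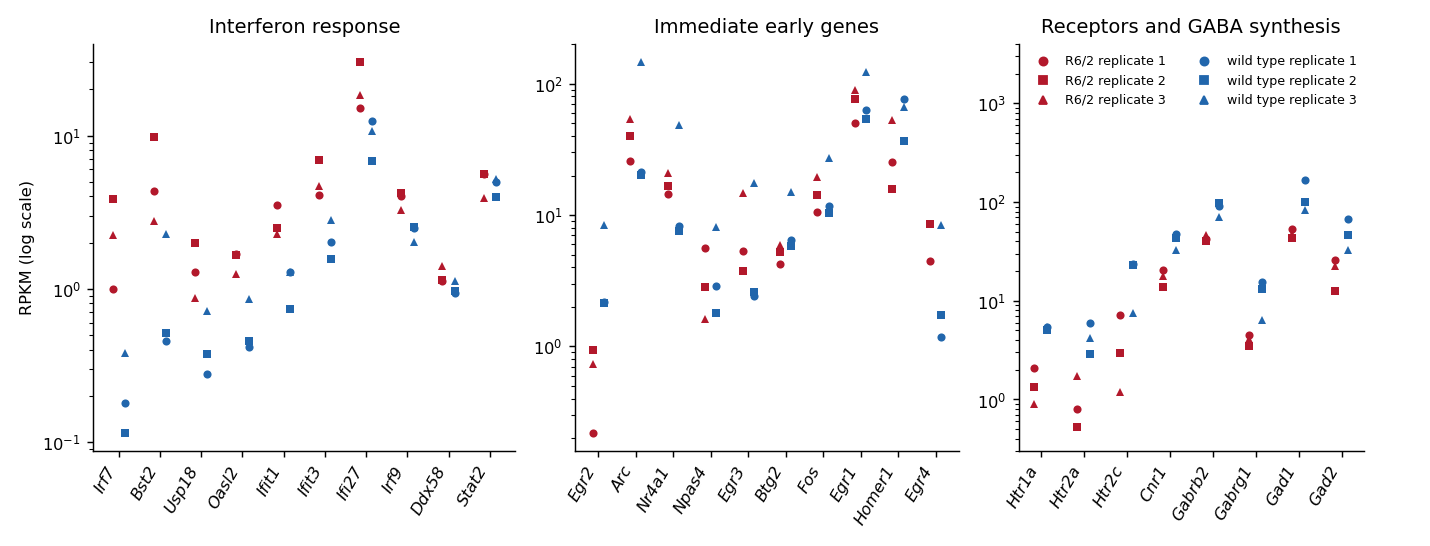
RPKM on a log axis (y) in each library for interferon-response genes (left), immediate early genes (middle) and receptors with the GABA-synthesizing enzymes (right). Red symbols are R6/2 and blue symbols wild type. Irf7, Bst2, Usp18, Oasl2, Ifit1 and Ifit3 are higher in every red than in every blue symbol, and the blue triangle, wild-type replicate 3, is the highest for Egr2, Arc, Nr4a1, Npas4, Egr3, Btg2, Fos and Egr1.

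Receptors for serotonin and cannabinoids were among the lowest genes in R6/2. Of 17 genes for cannabinoid, dopamine, serotonin and muscarinic receptors 14 were tested, and 5 had all R6/2 libraries below all wild-type libraries (background 9.41%). Their median log2 fold change was -0.77, -0.71 after GC correction and -0.73 against wild-type replicate 3 alone. No member passed edgeR's adjusted test, and DESeq2 placed 4 lower, where it placed 5.9% of all tested genes lower. Htr1a, the inhibitory serotonin 5-HT1A receptor, read 2.10, 1.34 and 0.905 RPKM in R6/2 and 5.42, 5.00 and 5.39 RPKM in wild type, a log2 fold change of -1.99 (SE 0.36). Htr2a, the excitatory 5-HT2A receptor of deep-layer pyramidal cells, read 0.799, 0.528 and 1.75 RPKM against 5.94, 2.86 and 4.18 RPKM. Its log2 fold change was -2.25 (SE 0.44), -1.60 after GC correction and -2.0 against wild-type replicate 3 alone. For both receptors every R6/2 library was below every wild-type library, in all 3 readings the direction was the same, and at 12 weeks both fell, by 1.78 (edgeR adjusted p = 0.00148) and 1.22 (0.0249) on the log2 scale.

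Htr2c, which encodes the 5-HT2C receptor, behaved differently from these. It read 7.10, 2.94 and 1.20 RPKM in R6/2 and 23.7, 22.8 and 7.45 RPKM in wild type, so the lowest wild-type library came within a small step of the highest R6/2 library. The log2 fold change of -2.42 (SE 0.66) was -0.89 against wild-type replicate 3 alone, and at 12 weeks it was 0.54. Cnr1, the CB1 cannabinoid receptor that limits transmitter release, read 20.5, 13.7 and 17.9 RPKM against 47.6, 43.4 and 32.4 RPKM. For Cnr1 the log2 fold change was -1.42 (SE 0.29), -0.73 after GC correction and -0.85 against wild-type replicate 3 alone. The highest member of the list was Htr1b, with 1.23, 0.211 and 0.906 RPKM against 0.203, 0.229 and 1.11 RPKM, and its groups overlapped.

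GABA receptor genes read lower as a family, and part of that reading went with their base composition. All 13 listed genes were tested, 11 were lower, and 7 had all R6/2 libraries below all wild-type libraries (background 9.41%). Among the 3877 tested genes with the lowest GC content, 84.0% were lower and 840 were lower without overlap. The median log2 fold change was -0.83 as counted, -0.37 after GC correction and -0.61 against wild-type replicate 3 alone, and the median GC content of their transcripts was 44.2%. Gabrb2, which encodes a subunit of fast GABA-A receptors, read 42.2, 40.6 and 46.9 RPKM in R6/2 and 90.8, 99 and 71.3 RPKM in wild type. The groups did not overlap, and the log2 fold change of -1.20 was -0.40 after GC correction. Gabrg1, the lowest member, read 4.48, 3.46 and 4.09 RPKM against 15.4, 13.2 and 6.41 RPKM, and its transcript had the low GC content of 34.7%. Its log2 fold change of -1.74 became -0.45 after GC correction and -0.02 at 12 weeks. Gabbr2, a subunit of the slow GABA-B receptor, was the highest member at 0.04, and turned to -0.15 after GC correction and to -0.59 against wild-type replicate 3 alone. Gabrd, the delta subunit of receptors outside synapses, moved the other way under correction, from -0.40 to -0.92, and was the member that fell at 12 weeks, by 1.42 on the log2 scale (edgeR adjusted p = 0.00351).

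Interneuron markers had a low median too. Of 16 genes, all tested, 12 were lower and 6 were lower without overlap (background 9.41%). The median log2 fold change was -0.92, -1.09 after GC correction and -0.49 against wild-type replicate 3 alone. The GABA-synthesizing enzymes differed, Gad1 with 52.9, 43.6 and 47.6 RPKM in R6/2 and 169, 100 and 84.0 RPKM in wild type, and Gad2 with 26.0, 12.7 and 22.6 RPKM against 67.2, 46.4 and 33.0 RPKM. Wild-type replicate 1 was the highest library for both, and against wild-type replicate 3 alone their log2 fold changes were -0.77 and -0.64. Reln, the secreted protein that guides the layering of the cortex, read 3.64, 2.08 and 2.51 RPKM against 9.86, 7.64 and 6.08 RPKM. The calcium-binding protein genes that mark interneuron classes differed from each other as counted. Pvalb read 66.7, 139 and 91.2 RPKM against 19.0, 27.2 and 86.3 RPKM, a log2 fold change of 1.07 as counted and 0.22 against wild-type replicate 3 alone. Calb2 read 10.1, 7.96 and 4.44 RPKM against 63.0, 6.17 and 7.84 RPKM, and was the lowest member at -1.94 (-2.38 after GC correction). The Calb2 difference rested on wild-type replicate 1, and against wild-type replicate 3 alone it was -0.004.

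Among 16 neuropeptide genes 12 were lower, and 4 were lower without overlap (background 9.41%). The median was -0.81, -0.80 after GC correction and -0.52 against wild-type replicate 3 alone. Vip, a peptide of interneurons that inhibit other interneurons, read 13.5, 18.6 and 19.4 RPKM in R6/2 and 32.8, 50.4 and 32.3 RPKM in wild type. The log2 fold change of Vip was -1.38 (SE 0.30), -0.84 after GC correction and -0.89 against wild-type replicate 3 alone. Penk, the precursor of enkephalins, read 45.8, 17.2 and 11.1 RPKM against 85.8, 78.8 and 47.1 RPKM, with the lowest wild-type and highest R6/2 libraries nearly touching. Crh, the stress peptide, read 1.64, 3.60 and 1.82 RPKM against 4.75, 6.17 and 3.64 RPKM, and Scg2 read 50.5, 53.4 and 49.4 RPKM against 166, 79.3 and 79.7 RPKM. Cartpt, the lowest member at -2.03, did not hold against wild-type replicate 3 alone (0.13), whose 1.68 RPKM lay among the R6/2 values of 1.52, 2.53 and 1.36 RPKM.

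Other peptides fell at 12 weeks and overlapped between the groups at 8. Sst, the somatostatin gene, read 83.6, 202 and 80.1 RPKM in R6/2 and 58.3, 75.3 and 209 RPKM in wild type at 8 weeks, a log2 fold change that rounds to 0.00 (SE 0.45). It was -0.70 after GC correction and -0.74 against wild-type replicate 3 alone, which was the highest of the 6 libraries. At 12 weeks it fell by 1.98 (edgeR adjusted p = 0.00562). Cck, the cholecystokinin gene, read 209, 503 and 239 RPKM against 105, 92.4 and 326 RPKM at 8 weeks, with 0.77 as counted and -0.06 after GC correction, and it fell by 1.18 at 12 weeks (adjusted p = 0.00272). The unadjusted p of the difference between ages was 0.00815 for Sst and 0.00257 for Cck, and neither passed adjustment. Vgf, a secreted precursor with a GC-rich transcript, was the highest member, at 1.07 as counted, 0.27 after GC correction and -0.02 with the GC slope as a covariate.

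Immediate early genes, which neurons switch on within minutes of activity, varied more between wild-type libraries than between the groups. Of 18 tested genes 13 were lower as counted, with a median of -0.33, and only Egr2 did not overlap. After GC correction all 18 were lower, with a median of -0.56, where 44.9% of all tested genes were. In 16 of the 18 all R6/2 libraries lay below wild-type replicate 3 (background 24.4%), and the median against it alone was -1.11. Egr2, a zinc finger transcription factor, read 0.221, 0.932 and 0.740 RPKM in R6/2 and 2.18, 2.13 and 8.44 RPKM in wild type, a log2 fold change of -2.86 (SE 0.59, edgeR adjusted p = 0.126). Arc, which encodes a protein that controls AMPA receptors at synapses, read 25.8, 40.0 and 53.6 RPKM against 21.2, 20.1 and 145 RPKM. Wild-type replicate 3 was far above the other 5 libraries in Arc, and the other wild-type libraries were below all R6/2 libraries.

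Wild-type replicate 3 was also the highest library for Nr4a1, Fos, Egr1, Npas4, Egr3 and Btg2. Nr4a1 read 14.3, 16.6 and 20.9 RPKM in R6/2 and 8.19, 7.61 and 48.4 RPKM in wild type. Fos read 10.6, 14.1 and 19.4 RPKM against 11.6, 10.3 and 27.1 RPKM, and Egr1 50.1, 76.9 and 89.0 RPKM against 63.4, 53.8 and 124 RPKM. For Arc, Nr4a1, Fos and Egr1 the log2 fold changes as counted were -0.70, -0.36, -0.28 and -0.29, with SEs of 0.58, 0.53, 0.32 and 0.28, and without wild-type replicate 3 they turned to 0.66, 0.86, 0.14 and 0.02. Npas4, which shapes inhibitory synapses, read 5.59, 2.85 and 1.61 RPKM against 2.90, 1.79 and 8.13 RPKM, and Egr3 5.37, 3.75 and 14.8 RPKM against 2.40, 2.62 and 17.7 RPKM. Homer1, whose short form is induced by activity, read 25.3, 15.8 and 52.9 RPKM against 76.8, 36.5 and 66.0 RPKM, and Btg2 read 4.23, 5.24 and 5.91 RPKM against 6.46, 5.83 and 14.9 RPKM. Egr4 was the highest member with 0.85 as counted, and its transcript is GC-rich, at 68.2%, so that it read -0.14 after GC correction. At 12 weeks 7 of the 18 genes fell, where 3.65% of all genes did. Among them were Arc, by 1.96 (edgeR adjusted p = 0.000762), and Egr3, by 1.65 (0.00654).

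Bdnf, the neurotrophin that cortical neurons supply to the striatum, had no overlap between the groups. It read 4.51, 5.45 and 4.48 RPKM in R6/2 and 10.3, 13.0 and 8.42 RPKM in wild type, a log2 fold change of -1.32 (SE 0.29, edgeR adjusted p = 0.127). After GC correction the value was -0.43 (SE 0.23), and against wild-type replicate 3 alone it was -0.76. At 12 weeks Bdnf fell by 0.86 (adjusted p = 0.029).

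Many genes that mark striatal projection neurons are also expressed by deeper cortical layers. By the median log2 fold change these markers were lower in R6/2 against all wild-type libraries and not against wild-type replicate 3 alone. Of 23 tested genes 19 were lower, with a median of -0.75, -0.91 after GC correction and 0.06 against wild-type replicate 3 alone. The summed level of the 26 genes was 683, 687 and 833 RPKM in R6/2 and 1196, 1292 and 1324 RPKM in wild type. These sums did not overlap, and wild-type replicate 3 had the highest. All R6/2 libraries lay below wild-type replicate 3 for 7 of the 23 tested genes and above it for 3 (background 24.4% and 19%). Drd1, the D1 dopamine receptor, read 3.36, 3.04 and 2.49 RPKM against 6.85, 12.4 and 2.61 RPKM, and Pde10a, a phosphodiesterase of medium spiny neurons, read 8.57, 2.96 and 6.12 RPKM against 12.2, 12.3 and 5.30 RPKM. For both, wild-type replicate 3 lay among the R6/2 libraries. Drd2 read 1.81, 0.517 and 0.397 RPKM against 0.934, 1.36 and 0.388 RPKM. Ppp1r1b, the signalling protein DARPP-32, read 38.3, 28.1 and 22.0 RPKM against 36.2, 49.4 and 32.7 RPKM, with a log2 fold change of -0.59 (SE 0.33), and at 12 weeks it fell by 1.51 (edgeR adjusted p = 0.0121). Scn4b, the beta-4 subunit of sodium channels, was 1 of 5 members that were lower without overlap (background 9.41%). It read 16.3, 5.21 and 5.83 RPKM against 17.7, 19.1 and 18.1 RPKM, and R6/2 replicate 1 was close to wild type. At 12 weeks Scn4b fell by 2.19 (adjusted p = 0.000846). How far residual striatal tissue in the dissections entered these values was not tested.

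Cortical projection neuron markers gave a median of -0.59, -0.54 after GC correction and -0.55 against wild-type replicate 3 alone, the most even of the marker lists over the 3 readings. Of 19 tested genes 15 were lower and 3 were lower without overlap (background 9.41%). The lowest was Ccn2, a marker of the deepest layer, with 2.92, 9.77 and 3.25 RPKM in R6/2 and 10.9, 20.5 and 13.6 RPKM in wild type. The highest was Nrgn, a calmodulin-binding protein of spines, with 558, 1140 and 830 RPKM against 161, 195 and 742 RPKM, and its log2 fold change of 1.12 fell to 0.21 against wild-type replicate 3 alone. Lamp5 read 39.3, 38.0 and 49.0 RPKM against 46.1, 43.6 and 108 RPKM, and Camk2a, a kinase of excitatory synapses, read 270, 220 and 425 RPKM against 290, 359 and 474 RPKM. Both overlapped at 8 weeks, with log2 fold changes of -0.76 and -0.46, and both fell at 12 weeks, by 2.22 (edgeR adjusted p = 0.00148) and 1.00 (0.00181).

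Enzymes of histone H3 lysine 4 methylation differed by little. Of 14 listed methyltransferase genes and partners 10 were tested, 7 were higher, and 4 had all R6/2 libraries above all wild-type libraries (background 13.7%). The median log2 fold change was 0.22, 0.22 after GC correction with all 10 on the higher side, and 0.19 against wild-type replicate 3 alone, beside 0.05 or less over all genes in each reading. Men1, which encodes menin, a subunit of the MLL complexes, was the highest, with 11.6, 14.4 and 14.0 RPKM in R6/2 and 5.81, 6.25 and 10.7 RPKM in wild type and a log2 fold change of 0.67 (SE 0.25, edgeR adjusted p = 0.155). Kmt2c was the lowest at -0.31 and read 0.26 after GC correction. The demethylases had a median of 0.04 over 5 tested genes, which turned to -0.01 with DESeq2's size factors, and no member separated. Kdm5c, which removes the mark, read 9.13, 7.45 and 10.9 RPKM against 6.50, 5.08 and 8.92 RPKM, a log2 fold change of 0.28 (SE 0.25), and Kdm1a was the lowest at -0.58. None of the 15 tested genes of both lists passed at either age.

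Polycomb genes, which silence developmental loci through another histone mark, had a median of 0.11 over 12 genes, from Suz12 at -0.84 (0.12 after GC correction) to Ring1 at 1.26. Ring1 read 7.49, 7.57 and 4.94 RPKM in R6/2 and 1.54, 1.86 and 4.38 RPKM in wild type. Of 18 developmental transcription factors only Pax6 and Onecut2 reached the minimum level, at -0.51 and 1.18. Onecut2, which is silent in most adult cortex, read 1.40, 1.23 and 0.554 RPKM against 0.488, 0.370 and 0.421 RPKM, with no overlap. It reached the minimum level only through the R6/2 libraries, as its wild-type mean was 0.426 RPKM. Its log2 fold change was 2.07 after GC correction and it rose at 12 weeks, by 1.55 (edgeR adjusted p = 0.0122).

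Channels and synaptic genes leaned lower. The medians were -0.43 for 19 potassium channels, from Kcnab1 at -1.02 to Kcnt1 at 0.79, and -0.42 for 8 sodium channels (0.07 after GC correction). Glutamate receptors had a median of -0.86 over 14 genes, -0.50 after GC correction, and 3 were lower without overlap (background 9.41%). The AMPA receptor subunit Gria3 was the lowest, with 41.5, 28.9 and 43.3 RPKM in R6/2 and 96.4, 78.5 and 61.4 RPKM in wild type, and Grik5 the highest at 0.68. Calcium signalling genes had a median of -0.46 over 22 genes, from Cacna2d1 at -1.14 to Cacna1g at 0.70. Genes of the synaptic vesicle cycle had a median of -0.34 over 16, from Sv2b at -1.07 to Rab3a at 0.81. Sv2b, a glycoprotein of vesicles, read 66.4, 57.3 and 98.7 RPKM against 138, 142 and 129 RPKM, and its groups did not overlap.

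**Figure D4:**
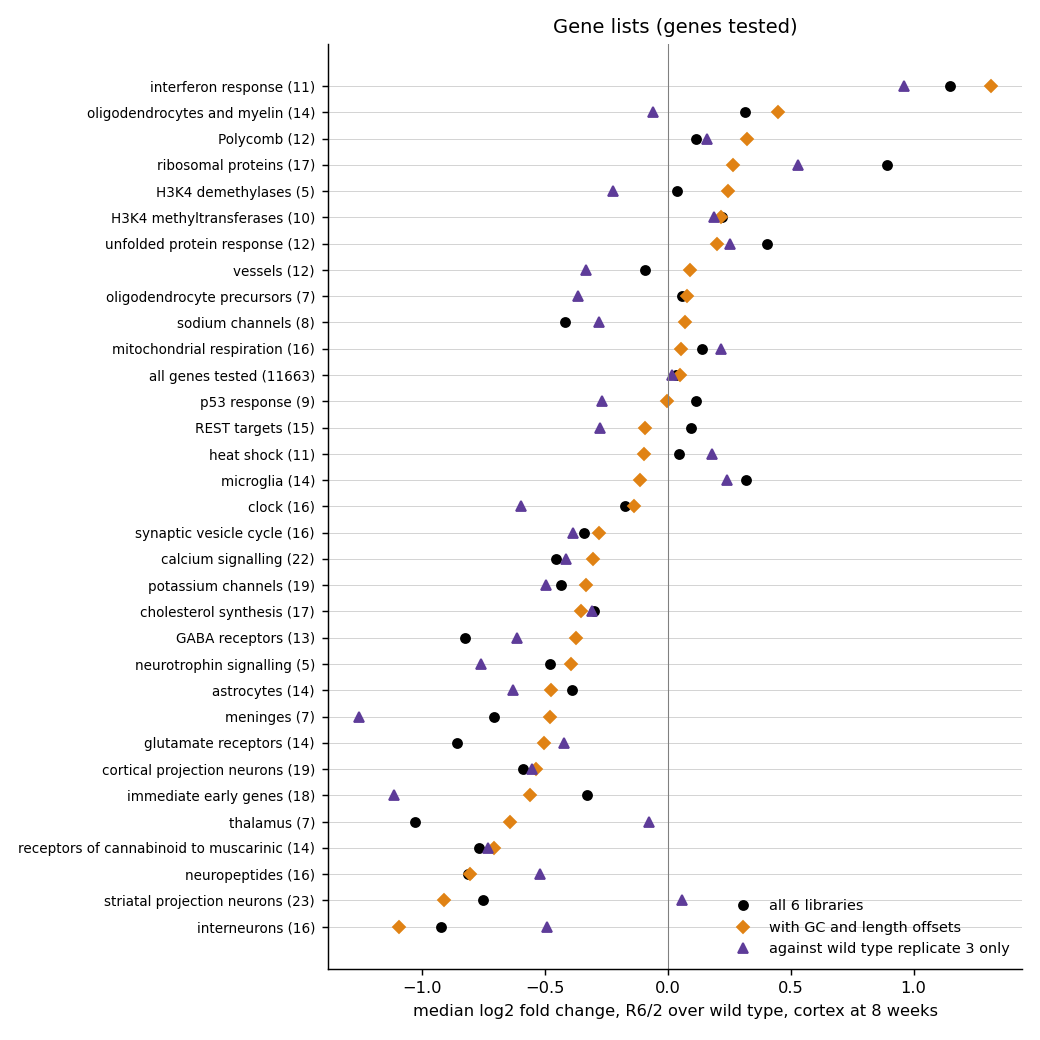
Median log2 fold change, R6/2 over wild type at 8 weeks (x axis), of gene lists with at least 5 tested genes (y axis, the number tested in brackets), as counted over all 6 libraries (black circles), with GC and length offsets (orange diamonds) and against wild-type replicate 3 only (violet triangles). Interferon-response genes lie at 0.96 to 1.31 in all 3 readings, and striatal projection neuron genes lie at -0.75, -0.91 and 0.06.

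Metabolic and stress gene lists each held members on both sides of 0. Ribosomal protein genes stood at 0.89 over 17 genes as counted and at 0.26 after GC correction, from Rps6 at -0.50 to Rplp1 at 1.83. Rplp1 read 81.3, 346 and 325 RPKM in R6/2 and 17.0, 24.9 and 157 RPKM in wild type, and it is a member of a family with many processed copies, so its counts are uncertain. Mitochondrial respiration genes had a median of 0.14, from Cycs at -0.91 to Ndufb9 at 0.99. Cholesterol synthesis had -0.30, from Cyp51 at -0.93 to Mvk at 0.77, and 5 of its 17 genes were lower without overlap (background 9.41%). The unfolded protein response had 0.40, from Dnajb9 at -0.87 to Ddit3 at 0.99, and heat shock genes 0.05, from Hspd1 at -0.56 to Hspb1 at 1.60. The p53 response had 0.12, from Trp53inp1 at -1.15 to Bax at 1.38, and Bax separated with 25.1, 48.3 and 38.2 RPKM against 10.5, 10.8 and 17.0 RPKM, although 1.38 shrank to 0.42 after GC correction. Clock genes had -0.17, from Bhlhe41 at -0.98 to Dbp at 0.58. REST targets had 0.09, neurotrophin signalling -0.48 with Ntrk3 the highest at 0.23, and histone genes whose transcripts lack a poly(A) tail 0.48, from H1f4 at -0.14 to H4c8 at 2.83. Hspb1 and H4c8 reached the minimum level only through the R6/2 libraries, with wild-type means of 0.365 and 0.125 RPKM. For them the minimum level itself favoured the direction found, and H4c8 had only 0, 0 and 8 counts in the wild-type libraries.

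By summed level, the marker lists of other cell types overlapped between the groups. The exceptions were striatal neurons, above, and thalamus, where the gap was narrow and rested in part on Calb2. Astrocyte genes had a median of -0.39 and a summed level of 1023 to 1785 RPKM in R6/2 and 1362 to 2103 RPKM in wild type. Aqp4, the water channel of astrocyte endfeet, read 10.2, 12.1 and 21.1 RPKM against 32.3, 37.9 and 28.9 RPKM, a log2 fold change of -1.40 (SE 0.30) that was -1.16 after GC correction and -0.17 at 12 weeks. S100b was on the other side, with 83.4, 215 and 158 RPKM against 51.7, 65.8 and 78.7 RPKM, and Gfap, the marker of reactive astrocytes, overlapped with 11.1, 32.5 and 41.1 RPKM against 15.5, 11 and 63.7 RPKM. Oligodendrocyte and myelin genes had a median of 0.32, from Ugt8a at -0.43 to Olig1 at 1.18, and R6/2 replicate 2 stood at a summed 2808 RPKM against 711 to 1617 RPKM in the other 5 libraries. Precursor genes had 0.06, from Vcan at -1.88 to Olig2 at 0.87. Vcan reached the minimum level only through the wild-type libraries, as its R6/2 mean was 0.381 RPKM.

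Microglial genes ran from P2ry12 at -1.01 to Trem2 at 1.07, values that were -0.26 and 0.30 after GC correction. Vessel genes had a median of -0.09 (0.03 with library totals and 0.08 with limma), from Rgs5 at -0.94 to Cldn5 at 0.88. Meningeal genes varied widely within both groups, and their sum was 133 to 897 RPKM in R6/2 and 161 to 711 RPKM in wild type, from Dcn at -1.34 to Ptgds at 0.41. Choroid plexus had 2 tested genes, Enpp2 at -0.51 and Ttr at 3.06, with Ttr at 8.86, 5.36 and 0.666 RPKM against 0.0838, 0.946 and 0.630 RPKM. Blood genes ran from Alas2 at 0.37 to Hba-a2 at 0.96, with summed levels of 5.69 to 11.8 RPKM in R6/2 and 1.5 to 11.1 RPKM in wild type. Thalamic genes, from Calb2 at -1.94 to Lef1 at 0.65, summed to 25.4 to 36.9 RPKM in R6/2 and 38.3 to 89.5 RPKM in wild type. Calb2, which is also on the interneuron list, gave 63.0 of the 89.5 RPKM in wild-type replicate 1. The separation of these sums rested in part on this gene. No marker of these lists was at 0 in all 6 libraries, and the part of any cell type in the gene results was not tested. Of the sex-linked genes, Ddx3y had 1 count over the 6 libraries and Eif2s3y, Kdm5d and Uty had 0.

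The 12-week libraries of cortex share no sample with those at 8 weeks and show how the same genes read later. At 12 weeks 508 of 11769 tested genes (4.32%) differed, of which 429 fell (3.65%) and 79 rose (0.671%), at an edgeR adjusted p under 0.05. Of the 429 that fell, 413 were tested at 8 weeks, and 291 of them, 70.5%, were lower there as counted, where 48.1% of all tested genes were lower. After GC correction 351, or 85.0%, were lower at 8 weeks, where 44.9% of all were. The 8-week median of these genes was -0.34, -0.53 after GC correction and -0.60 against wild-type replicate 3 alone, and their median at 12 weeks was -0.98. The groups did not overlap at 8 weeks in the same direction for 82 of the 413 (19.9%) and in the opposite direction for 10. Over all tested genes 9.41% were lower without overlap and 13.7% higher. The gap between the readings lay in GC-rich genes: among the 3877 with the highest GC content 124 of 229 were lower as counted and 188 after GC correction, and among the 3877 in the middle 106 of 120 and 109.

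Of the 79 that rose at 12 weeks, 72 were tested at 8 weeks, and 60 of them, 83.3%, were higher as counted against 51.9% of all genes. After GC correction 67, or 93.1%, were higher against 55.1%. Their 8-week median was 0.53, 0.55 after GC correction and 0.78 against wild-type replicate 3 alone. All 3 R6/2 libraries lay above wild-type replicate 3 for 49 of the 72, or 68.1%, against 19% of all genes, and for 53.3% of those with middle GC content. The groups did not overlap in the same direction for 30 (41.7%) and in the opposite one for 0. Over all tested genes 13.7% were higher without overlap and 9.41% lower. Among the genes with the smallest p at 12 weeks, Camk2n1, an inhibitor of the kinase CaMKII, read 324, 475 and 555 RPKM in R6/2 and 515, 844 and 695 RPKM in wild type at 8 weeks, with a log2 fold change of -0.80 (SE 0.26), and it fell by 1.64 at 12 weeks (adjusted p = 0.00106). Atad2b, a chromatin protein with a bromodomain, read 5.85, 3.42 and 4.87 RPKM against 4.85, 3.98 and 2.58 RPKM, and its 8-week value of 0.12 was 0.93 after GC correction and 1.40 at 12 weeks (adjusted p = 0.00148).

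Other genes that fell at 12 weeks overlapped between the groups at 8. Rspo1, a secreted enhancer of Wnt signals, read 1.74, 2.03 and 1.38 RPKM in R6/2 and 1.31, 1.03 and 5.13 RPKM in wild type at 8 weeks, and at 12 weeks it read 0.348, 0.404 and 0.498 RPKM against 4.41, 4.56 and 2.79 RPKM, a fall of 3.39 on the log2 scale (adjusted p = 0.000762). The 8-week log2 fold change of Rspo1 was -0.61 (SE 0.53) as counted, -1.25 after GC correction and -1.53 against wild-type replicate 3 alone, which was above all 3 R6/2 libraries. Ldhd, a mitochondrial D-lactate dehydrogenase, read 2.12, 3.57 and 3.93 RPKM against 1.83, 1.88 and 3.79 RPKM, then 1.23, 1.24 and 1.24 RPKM against 4.75, 3.86 and 4.19 RPKM. Spag5, a protein of the mitotic spindle, read 1.74, 1.21 and 1.88 RPKM against 0.861, 1.45 and 1.76 RPKM at 8 weeks and fell by 1.63 at 12 weeks (adjusted p = 0.00139). Epop and Car11 had 8-week values of 0.11 and 0.58 as counted, and -0.96 and 0.06 after GC correction, and fell by 1.85 and 1.27 at 12 weeks. Ryr1, the ryanodine receptor best known from muscle, was below the minimum level at 8 weeks and was not tested there, with 0.521, 0.299 and 0.268 RPKM against 0.508, 0.478 and 0.442 RPKM.

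The difference between ages was tested directly with the genotype by age term over the 12 cortical libraries. edgeR called 0 of 11742 genes (0%), with 2101 at an unadjusted p under 0.05, and DESeq2 called 127. With the GC correction edgeR called 0 and 912 were at an unadjusted p under 0.05. The smallest unadjusted p among the genes named here was that of Ldhd, at 7.4e-05, for a difference of -2.10 on the log2 scale between the 12-week and the 8-week effect. Whether single genes differ more at 12 than at 8 weeks was therefore not resolved by these libraries. From the side of the 8-week data, 680 genes that DESeq2 placed lower at 8 weeks were tested at 12 weeks. Of these 521 were also lower there, 76.6% against 48.8% of all genes. In edgeR's test 83 of them fell, where 3.65% of all genes did. Of the 351 that DESeq2 placed higher, 226 were higher at 12 weeks, 64.4% against 51.2% of all. In edgeR's test 13 rose, where 0.671% of all genes did.

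**Figure D5:**
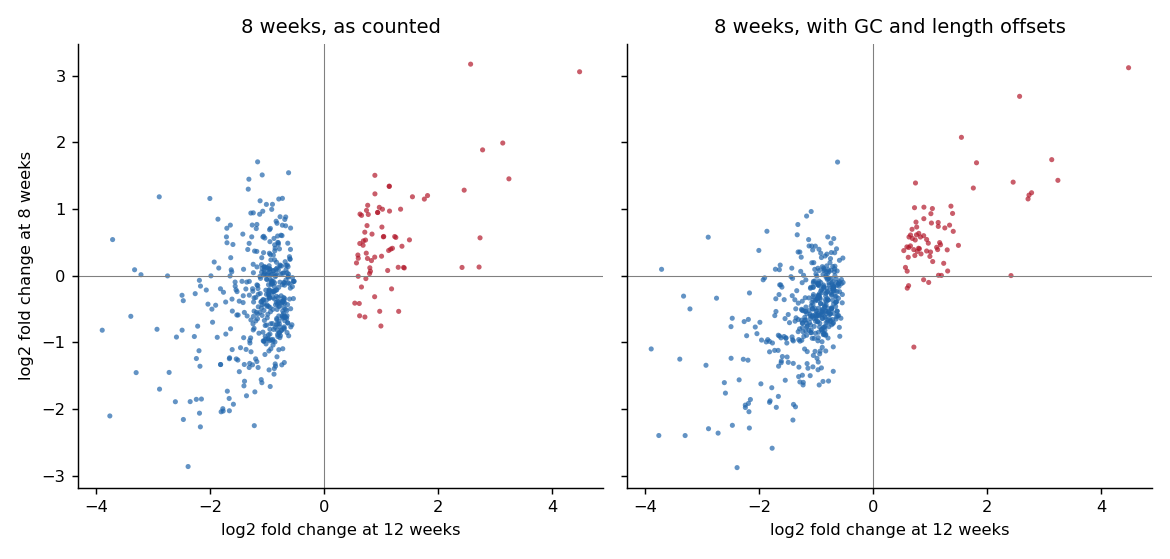
Log2 fold change at 8 weeks (y axis) against that at 12 weeks (x axis) for the genes that passed edgeR's test at 12 weeks and were tested at 8 weeks, as counted (left) and with GC and length offsets at 8 weeks (right). Blue points fell and red points rose at 12 weeks, and Gm12695 is left out. As counted 291 of 413 blue genes lie below 0, and with the offsets 351 do.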

How the data were processed

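Polyadenylated RNA was sequenced by a strand-specific paired-end protocol, per the labels' protocols. The authors deposited, for each library, read counts per gene and RPKM values, and the submitters' processing notes name Bowtie, DESeq and build mm9, with no versions. The 12 cortical libraries were used, 6 of them at 12 weeks, and striatum was not analysed here. Groups came from the labels. Genes with a mean of at least 0.5 RPKM were tested on the deposited counts with edgeR 4.0.16 (TMM scaling, quasi-likelihood test, two-sided, Benjamini-Hochberg adjustment over all genes tested) in R 4.3.3, separately at each age, and the interaction over 12 libraries. Adjusted p-values under 0.05 were called. Alternatives were DESeq2 1.42.0, limma 3.58.1 on log2(RPKM + 0.5), other pseudocounts, scalings and minimum levels, GC and length offsets from transcript annotation (GC known for 11631 of 11663 genes), the GC slope as a covariate, and each library left out. The fits were tested on simulated data. Replicates differed by more than sampling noise (chi-square per degree of freedom 21.9 to 160), so none was counted as a repeat. Symbols came from RefSeq for 18594 of 18669 gene IDs.

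The text names the 10 genes with the smallest p in each direction, the lowest and highest member of each list, and fixed single genes. Some genes that this rule or the lists hold are not reported here by name, and list counts and medians include them. Other names, among them further list members and the genes from the GC-corrected and 12-week fits, were chosen after their values were seen. The comparison and the 37 lists (494 of 514 entries matched) were chosen with earlier results of these data known. Depth was 11612687 to 44625494 counts a library at 8 weeks, and the interval given for a count ratio covers counting error only.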

Additional observations from a re-analysis of the deposited data

How the results depend on the processing

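At 8 weeks the edgeR count stayed at 0 under every alternative run except DESeq2, with 1039 genes, and the fit without wild-type replicate 3. Leaving out 1 library gave 0 to 3102 calls at 8 weeks, 206 to 725 at 12 weeks and 0 to 2252 for the interaction, where the highest count at 8 weeks and for the interaction came without wild-type replicate 3. At 12 weeks DESeq2 called 952 genes, and limma 238, 176 and 242 with pseudocounts of 0.5, 0.1 and 1. DESeq2 called 127 genes for the interaction. The cause of these gaps was not tested. The 8-week median of genes that rose at 12 weeks was 0.65 with limma and a pseudocount of 0.1, 0.69 with library totals, 0.71 with the GC slope as a covariate and 0.78 against wild-type replicate 3 alone, and ran from 0.43 to 0.61 with 1 library left out. That of genes that fell was -0.67 with the GC slope as a covariate, and ran from -0.46 to -0.04 with 1 library left out. No paired analysis was possible because the labels give the groups no shared replicate numbers. Of the 136 genes followed, those whose log2 fold change at 8 weeks turned in sign are given with the turned value. With GC and length offsets the sign turned for Ugt8a 0.40, Ptgds -0.27, Egr4 -0.14, Gabbr2 -0.15, Kmt2c 0.26, Suz12 0.12, Htt 0.33, Cck -0.063, Epop -0.96 and Ldhd -0.062. With the GC slope as a covariate the sign turned for Nrgn -0.31, Calb2 0.42, Pvalb -0.30, Olig1 -0.20, Olig2 -0.28, Ptgds -1.03, Alas2 -1.15, Hba-a2 -1.28, Lef1 -0.17, Egr4 -0.73, Cartpt 0.42, Vgf -0.017, Cacna2d1 0.11, Grik5 -0.00055, Gabbr2 -0.55, Htr1b -0.34, Dbp -0.77, Hspd1 0.41, Rplp1 -0.14, Kmt2c 0.26, Suz12 0.38, Pax6 0.22, Ntrk3 -0.35, H1f4 0.79, Cck -0.61, Ppp1r1b 0.10, Drd1 0.63, Drd2 1.90, Pde10a 0.71, Epop -1.03, Ldhd -0.44, Car11 -0.41 and Spag5 -0.0082. With library totals the sign turned for Stat2 0.079, H1f4 0.095, Htt 0.037, Sst 0.085, Drd2 0.037 and Egr3 0.065. With limma and a pseudocount of 0.1 the sign turned for Stat2 0.078, Htt 0.022, Gfap 0.15, Sst 0.19, Nr4a1 0.24 and Egr3 0.46. With limma and 0.5 the sign turned for Stat2 0.073, Htt 0.024, Gfap 0.14, Sst 0.18, Nr4a1 0.22 and Egr3 0.40. With limma and 1 the sign turned for Stat2 0.068, Htt 0.025, Gfap 0.14, Sst 0.18, Nr4a1 0.20 and Egr3 0.35. Against wild-type replicate 3 alone the sign turned for Ptgds -0.40, Alas2 -0.48, Hba-a2 -0.40, Lef1 -0.075, Egr4 -0.21, Cartpt 0.13, Gabbr2 -0.59, Htr1b -0.42, Dbp -0.34, Hspd1 0.18, Kmt2c 0.049, Suz12 0.054, Pax6 0.13, Ntrk3 -0.35, H1f4 0.62, Cck -0.013, Drd1 0.24, Drd2 1.32, Pde10a 0.21, Epop -0.67, Ldhd -0.23, Car11 -0.22 and Spag5 -0.094. With upper-quartile scaling the sign turned for Stat2 0.013, Sst 0.054 and Egr3 0.011. Leaving out 1 library turned the sign of genes whose values then ran as follows: Alas2 -0.12 to 1.18, Arc -1.09 to 0.66, Atad2b -0.17 to 0.34, Drd2 -1.26 to 0.42, Egr1 -0.44 to 0.023, Egr3 -0.66 to 1.37, Epop -0.22 to 0.78, Fos -0.46 to 0.14, Gabbr2 -0.37 to 0.52, Gfap -0.56 to 0.78, H1f4 -0.86 to 0.24, Htr1b -0.046 to 1.63, Htt -0.33 to 0.22, Npas4 -1.04 to 0.31, Nr4a1 -0.73 to 0.86, Ptgds -0.22 to 1.09, Rspo1 -0.92 to 0.30, Spag5 -0.14 to 0.25, Sst -0.56 to 0.59, Stat2 -0.21 to 0.17. Depth limits the genes near the minimum level, and with 3 libraries a group a single library can set a call.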
